A study of Mus musculus with 10 samples.

Results

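The genes described here make cholesterol or govern its synthesis through SREBP2, in the terminal ileum of mice after bariatric surgery. They were chosen by name and not by their values: 28 genes out of the 36401 in the deposited files, each matched to a single Ensembl gene. They comprise 8 enzymes of the early pathway, 11 enzymes of the sterol branch, 6 genes of the SREBP2 machinery and 3 genes of sterol movement between membranes. Msmo1 appears in the files under its older symbol Sc4mol, which is used below.

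The 10 libraries come from male C57Bl6 mice fed a diet with 60% of its energy from fat, for 6 weeks before an operation at 8 weeks of age, per the labels. For the 5 VSG libraries the mice had a vertical sleeve gastrectomy, which removes most of the stomach, and then ate ad libitum. For the 5 SPF libraries they had a sham operation and were pair-fed to the VSG mice, so food intake was meant to be equal. Both groups received the liquid diet Osmolite around surgery, and about 8 weeks later were fasted overnight and sampled 1 hour after a gavage of 0.5 mL Osmolite. The libraries are of whole tissue, so fewer cells of a type and less RNA per cell cannot be told apart.

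Cholesterol is built from acetyl-CoA by way of mevalonate and the isoprenoid farnesyl diphosphate, which squalene synthase commits to sterols. The transcription factor SREBP2 is made as a membrane precursor, held in the endoplasmic reticulum by INSIG proteins when sterols are plentiful and carried to the Golgi by SCAP when they are scarce. There 2 proteases release its active fragment, which switches on nearly every enzyme of the pathway as well as Insig1 and Srebf2 itself. The small intestine both absorbs cholesterol and makes its own, and its synthesis genes are known to respond to dietary and biliary sterol.

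Library totals ran from 15364651 to 34058181 estimated counts, and no member had fewer than 221 counts in any library. All 28 members passed the filter on low counts. Libraries VSG 2, SPF 2 and SPF 4 stood apart in genes of gut position: Gata4, which marks proximal gut, lay at 109.5 to 183.5 CPM (counts scaled to a common library size) in these 3 and at 1.72 to 6.28 in the other 7. Of 8 proximal marker genes 7 passed the filter, and their mean level in log2 CPM was 5.52 to 6.84 in the 3 libraries and 2.14 to 3.04 in the rest. Of these 7, 5 lay above the other libraries in all 3, Cybrd1 overlapped (5.01 to 5.75 against 3.58 to 7.05 CPM), and Slc40a1 lay below them (3.68 to 13.6 against 35.8 to 98.3). The summed level of the 6 ileal markers was 402.2 to 587.0 against 4324 to 9321 CPM. The labels call every sample ileum, so the fold changes between the groups are given with and without these libraries.

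Between VSG and SPF, no gene of cholesterol synthesis or its control passed the test for a difference. None of the 28 was called by edgeR's quasi-likelihood test, in which a gene was called at a Benjamini-Hochberg adjusted p under 0.05 over all genes (adjusted p of the members 0.977 to 0.999). Of the 15678 genes tested with edgeR 0 were called, or 0%. DESeq2 called 14 genes over the whole table, of which 0 were members. At an unadjusted p under 0.05 stood 0 of the 28, against 3.80% of all genes tested. Fold changes on the log2 scale, VSG minus SPF, lay between -0.10 for Dhcr7 and 0.54 for Insig2. In VSG 22 members stood higher and 6 lower, the median being 0.15, while 41.9% of all genes were higher and their median was -0.05. Acat2 counts among the higher and Pmvk among the lower, although both are at 0.00 when rounded. In no member did all 5 VSG libraries lie above or all below the 5 SPF libraries, an order seen in 0.255% and 0.293% of all genes.

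Markers of several cell types leaned to one side in the same comparison, again with 0 called. All 4 enterocyte markers were higher in VSG (median log2 fold change 0.30), with summed levels of 10269 to 12500 CPM in VSG and 6334 to 12249 in SPF. All 8 smooth muscle markers were lower (median -0.52), with sums of 758.8 to 1598 and 309.4 to 3829 CPM, as were all 8 fibroblast markers (-0.34), with 357.2 to 591.1 and 300.4 to 736.7 CPM. The summed levels of each of these lists thus overlapped between the groups. All 8 T cell markers were lower (-0.55), with 13.4 to 71.8 and 30 to 75.2 CPM, and all 10 proliferation markers (-0.25), with 301.1 to 554.8 and 410.2 to 572.7 CPM. All 5 plasma cell markers were higher (0.51), with 451.2 to 650.2 and 386.6 to 604.5 CPM. Over all libraries Sdc1 was at 110.1 to 318.1 CPM and Xbp1 at 196.2 to 330.0, so that sum follows mainly these genes. Prdm1 was at 8.23 to 19.1 CPM, Derl3 at 2.1 to 9.01 and Tnfrsf17 at 0.355 to 1.89. Without VSG 2, SPF 2 and SPF 4 the medians were 0.38 for enterocyte, -0.39 for smooth muscle and -0.44 for fibroblast markers. T cell markers were then at -0.92, proliferation markers at -0.37 and plasma cell markers at 0.37. Of the smooth muscle and of the fibroblast markers 7 of 8 were then lower. Red blood cell markers were lower in 5 of 5 (median -0.53), stem cell markers in 5 of 6 (-0.52) and neuron and glia markers in 7 of 8 (-0.64). Adipocyte markers were lower in 4 of 5 (-0.31). Without the 3 libraries these medians were -0.69, -0.57, -0.41 and -0.74. B cell markers were higher in 6 of 8 (0.17), but in 0 of 8 without the 3 libraries (-0.65). The part of these cell types in the members' values was not tested.

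How many members were higher depended on the 3 libraries named above, of which 1 is VSG and 2 are SPF. Without them 13 stood higher and 15 lower, and the median was -0.02 beside -0.05 for all genes. The call count stayed at 0 of 15911 genes, or 0%, and 1 member, Npc1, had an unadjusted p under 0.05, where 6.96% of all genes did. Leaving out SPF 2 alone brought the higher members to 14.

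**Figure D1:**
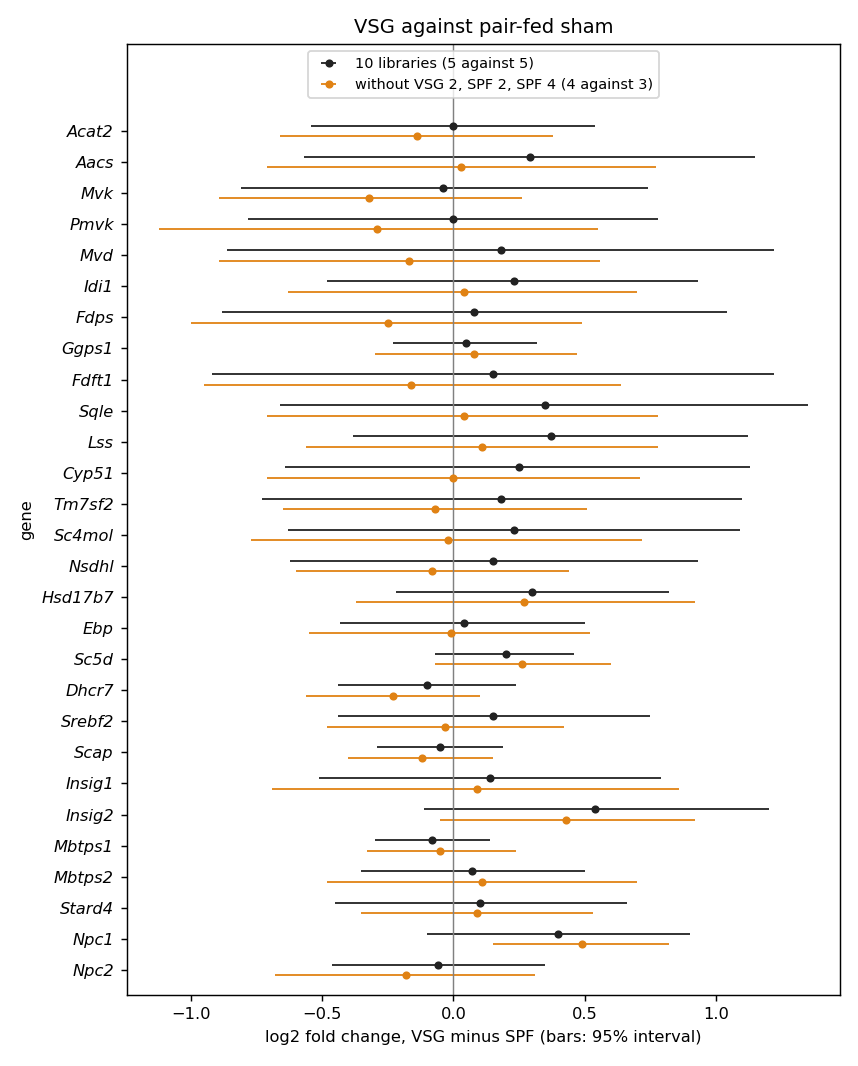
Log2 fold change of each of the 28 genes, VSG minus SPF (x axis), with 95% intervals from edgeR. Black points use all 10 libraries and orange points leave out VSG 2, SPF 2 and SPF 4. Every black interval includes 0, and the orange point of most synthesis enzymes lies to the left of the black one.

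The sequence before the gene start was searched for short motifs in the members for which it was available. RefSeq (build GRCm38.p6) gave windows for 23 of the 28 genes, 29 in all, of which the 250 bases before the start were searched on both strands. Sqle, Fdft1, Fdps, Stard4 and Npc1 were not matched. CCAAT, the box bound by NF-Y, a partner of SREBP2, was found in 18 of the 29 windows or 62.1%, against 33.8% of the 32851 windows of all genes. GGGCGG, the GC box bound by Sp1, was found in 72.4% against 32.7%, and the members' windows were also richer in G and C, at 60.2% against 53.2%. The E-box CACGTG was found in 5 windows, those of Dhcr7, Hsd17b7, Insig1, Sc5d and Scap (17.2% against 6.02%).

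The strict sterol regulatory element TCACNCCAC was in 0 of the 29 windows and in 1.05% of all. With a second open position, TCACNCNAC, it was in that of Nsdhl and in 2.26% of all. ATCACCNCA, a spelling chosen after the sequences had been read, was in those of Srebf2 and Cyp51 and in 0.645% of all. A match describes letters and not binding. The windows of Srebf2 and Cyp51 are shown for this match, and that of Mvd as the member with the widest range between libraries. That of Insig1 is shown because SPF 4, low in most synthesis genes, was high in Insig1, as given below. Capitals mark the matches to these motifs on either strand, and each sequence is written 5′ to 3′ along the gene.
Srebf2, chr15:82147019-82147268, plus strand: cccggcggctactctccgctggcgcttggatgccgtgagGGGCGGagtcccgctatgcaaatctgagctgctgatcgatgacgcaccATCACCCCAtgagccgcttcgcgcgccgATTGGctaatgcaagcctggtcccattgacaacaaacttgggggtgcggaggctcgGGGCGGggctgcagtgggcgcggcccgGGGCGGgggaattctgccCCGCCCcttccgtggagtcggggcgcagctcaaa
Cyp51, chr5:4104698-4104947, minus strand: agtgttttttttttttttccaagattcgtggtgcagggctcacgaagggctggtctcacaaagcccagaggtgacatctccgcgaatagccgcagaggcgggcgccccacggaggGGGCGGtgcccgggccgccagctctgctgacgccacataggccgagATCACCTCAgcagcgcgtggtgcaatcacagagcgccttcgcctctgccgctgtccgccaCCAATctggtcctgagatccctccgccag
Mvd, chr8:122443423-122443672, minus strand: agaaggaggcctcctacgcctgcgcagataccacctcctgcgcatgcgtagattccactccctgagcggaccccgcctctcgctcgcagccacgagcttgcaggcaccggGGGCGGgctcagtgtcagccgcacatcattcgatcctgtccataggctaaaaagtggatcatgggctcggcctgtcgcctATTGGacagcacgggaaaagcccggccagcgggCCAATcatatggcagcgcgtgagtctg
Insig1, chr5:28071162-28071411, plus strand: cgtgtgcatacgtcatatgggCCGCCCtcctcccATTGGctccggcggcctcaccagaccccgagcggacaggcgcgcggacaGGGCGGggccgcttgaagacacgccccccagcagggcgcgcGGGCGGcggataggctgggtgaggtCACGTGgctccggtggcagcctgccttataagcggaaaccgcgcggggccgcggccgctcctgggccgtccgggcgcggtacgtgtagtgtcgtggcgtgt

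The early pathway runs from acetyl-CoA to farnesyl diphosphate. Of its 8 genes 6 were higher in VSG, with a median log2 fold change of 0.06 (-0.15 without the 3 libraries). Idi1, the isomerase that makes the reactive isoprenoid unit, stood at 261.4, 117.1, 234.6, 124.8 and 122.0 CPM in VSG 1 to 5 and at 190.3, 71, 189.0, 120.7 and 164.0 CPM in SPF 1 to 5. The groups overlapped, and the high libraries were VSG 1 and VSG 3 on one side and SPF 1 and SPF 3 on the other. The difference was smaller than the spread (log2 fold change 0.23 ± 0.32 (SE), 95% interval -0.48 to 0.93, edgeR adjusted p = 0.977, and 0.04 without the 3 libraries).

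Mvd, which decarboxylates mevalonate diphosphate, had the widest range of any member, from 13.5 CPM in SPF 2 to 92.6 in SPF 3, a ratio of 6.87. Its group means were 55.5 ± 24.6 in VSG and 48.8 ± 31.6 in SPF (SD, n = 5 each), and its log2 fold change was 0.18 (-0.86 to 1.22), with the 95% interval in parentheses as for the genes below. Fdps, the farnesyl diphosphate synthase, spanned 46.6 CPM in SPF 2 to 274.0 in SPF 3, with a log2 fold change of 0.08 (-0.88 to 1.04). So the lowest and the highest value of both genes fell within the same group.

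Aacs, which activates acetoacetate for lipid synthesis, had a log2 fold change of 0.29 (-0.57 to 1.15). The mevalonate kinases Mvk and Pmvk were at -0.04 (-0.81 to 0.74) and 0.00 (-0.78 to 0.78). Acat2, the cytosolic thiolase at the head of the pathway, was at 0.00 (-0.54 to 0.54), and its near copy Acat3, with which reads could be shared, stood at 5.2 to 11.8 CPM. Ggps1 takes isoprenoid units away from sterols into geranylgeranyl diphosphate. It hardly varied, at 16.3 to 22.7 CPM over all 10 libraries, with a log2 fold change of 0.05 (-0.23 to 0.32). Without the 3 libraries the log2 fold change was 0.03 for Aacs, -0.32 for Mvk, -0.29 for Pmvk, -0.14 for Acat2, -0.17 for Mvd, -0.25 for Fdps and 0.08 for Ggps1.

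In the sterol branch, 10 of 11 genes were higher in VSG, their median log2 fold change being 0.20. Without the 3 libraries 5 of 11 were higher and the median was -0.01. Sqle encodes squalene epoxidase, a rate-limiting enzyme of the branch. It stood at 353.8, 116.5, 318.9, 148.4 and 171.0 CPM in VSG 1 to 5 and at 269.4, 58.3, 269.6, 85.6 and 188.0 CPM in SPF 1 to 5. VSG 1 and VSG 3 were the 2 highest libraries, SPF 1 and SPF 3 came next, and SPF 2 and SPF 4 were the lowest. Its fold change was small against that range (log2 fold change 0.35 ± 0.46 (SE), 95% interval -0.66 to 1.35, edgeR adjusted p = 0.977, and 0.04 without the 3 libraries).

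Lss, the cyclase that folds squalene epoxide into lanosterol, stood at 130.6, 63.3, 112.8, 57.9 and 67.1 CPM in VSG 1 to 5 and at 103.2, 29, 74, 48.2 and 78.8 CPM in SPF 1 to 5. Again VSG 1 and VSG 3 led and SPF 2 was lowest, with the groups overlapping (log2 fold change 0.37 ± 0.34 (SE), 95% interval -0.38 to 1.12, edgeR adjusted p = 0.977, and 0.11 without the 3 libraries). Hsd17b7 reduces the sterol ketone during demethylation, and stood at 92.9, 59, 98.9, 52.7 and 54.2 CPM in VSG 1 to 5 and at 80.8, 41.1, 48.6, 63.7 and 56.3 CPM in SPF 1 to 5. Its 2 highest libraries were both VSG, while VSG 4 and VSG 5 lay among the SPF values (log2 fold change 0.30 ± 0.24 (SE), 95% interval -0.22 to 0.82, edgeR adjusted p = 0.977, and 0.27 without the 3 libraries).

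Sc5d introduces a double bond late in the pathway. It stood at 165.1, 137.2, 166.0, 146.9 and 165.4 CPM in VSG 1 to 5 and at 137.6, 149.2, 151.1, 129.8 and 114.2 CPM in SPF 1 to 5. Among the VSG libraries 3 lay at 165.1 to 166.0, above every SPF library, and VSG 2 and VSG 4 lay within the SPF range. The log2 fold change was 0.20 ± 0.12 (SE), with a group mean of 156.1 ± 13.3 in VSG and 136.4 ± 15.1 in SPF (SD, n = 5 each, edgeR adjusted p = 0.977), and 0.26 without the 3 libraries. The highest library was 1.45 times the lowest, so Sc5d did not share the wide range of Sqle, at 6.07 times.

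The other sterol branch genes had small fold changes with wide intervals. Fdft1, the squalene synthase, was at 0.15 (-0.92 to 1.22), and Cyp51, the lanosterol demethylase, at 0.25 (-0.64 to 1.13). The demethylation enzymes Sc4mol and Nsdhl were at 0.23 (-0.63 to 1.09) and 0.15 (-0.62 to 0.93). Tm7sf2, a sterol reductase, was at 0.18 (-0.73 to 1.10), and Ebp, a sterol isomerase, at 0.04 (-0.43 to 0.50). Dhcr7, which makes cholesterol in the last step, was the lowest member at -0.10 (-0.44 to 0.24). Without the 3 libraries Fdft1 was at -0.16, Cyp51 at 0.00, Sc4mol at -0.02, Nsdhl at -0.08, Tm7sf2 at -0.07, Ebp at -0.01 and Dhcr7 at -0.23.

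**Figure D2:**
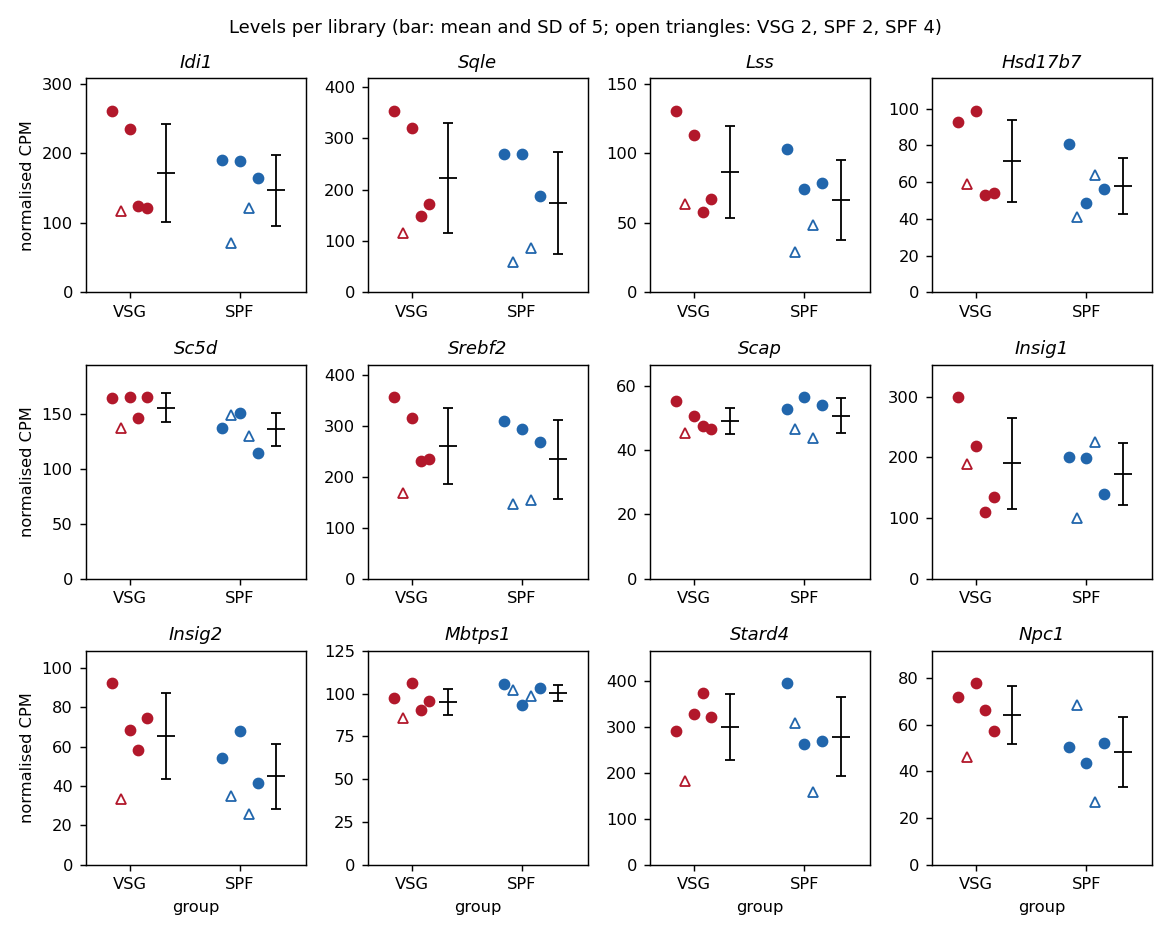
Normalised CPM (y axis, from 0) of 12 genes in each library of the 2 groups, with the mean and SD of 5 libraries as a bar. Open triangles are VSG 2, SPF 2 and SPF 4, which hold the lowest values of Sqle, Srebf2 and Insig2, and Scap and Mbtps1 lie within narrow bands.

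The SREBP2 machinery held genes of wide and of narrow range. Of its 6 genes 4 were higher in VSG, the median being 0.11 (3 of 6 and 0.03 without the 3 libraries). Srebf2, which encodes SREBP2, stood at 357.2, 167.5, 314.7, 230.2 and 234.5 CPM in VSG 1 to 5 and at 308.8, 147.4, 293.7, 155.2 and 267.9 CPM in SPF 1 to 5. The 3 libraries VSG 2, SPF 2 and SPF 4 were lowest, and the other 7 overlapped between groups (log2 fold change 0.15 ± 0.27 (SE), 95% interval -0.44 to 0.75, edgeR adjusted p = 0.983, and -0.03 without the 3 libraries). Scap, the escort protein, stood at 55.2, 45.2, 50.7, 47.6 and 46.4 CPM in VSG 1 to 5 and at 52.8, 46.4, 56.6, 43.7 and 54 CPM in SPF 1 to 5. The highest value was only 1.30 times the lowest, and the interval of the fold change ran from -0.29 to 0.19 (-0.05 ± 0.11, edgeR adjusted p = 0.985, and -0.12 without the 3 libraries).

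Mbtps1, the site-1 protease that makes the first cut in SREBP2, stood at 97.4, 85.7, 106.3, 90.5 and 95.6 CPM in VSG 1 to 5 and at 105.6, 102.2, 93.4, 98.4 and 103.2 CPM in SPF 1 to 5. It had the narrowest range of all members, 1.24 times, and its groups overlapped (log2 fold change -0.08 ± 0.10 (SE), 95% interval -0.30 to 0.14, edgeR adjusted p = 0.977, and -0.05 without the 3 libraries). Mbtps2, the site-2 protease, ranged from 8.7 to 18.4 CPM, both the lowest (SPF 3) and the highest value (VSG 3) lying outside the 3 libraries, and its log2 fold change was 0.07 (-0.35 to 0.50), and 0.11 without them.

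INSIG1 and INSIG2 both hold SREBP2 with SCAP in the endoplasmic reticulum, but only the first is a well known SREBP target. Insig1 stood at 300.3, 189.4, 218.3, 109.7 and 134.4 CPM in VSG 1 to 5 and at 200.1, 99.7, 199.6, 225.6 and 139.1 CPM in SPF 1 to 5. VSG 1 was highest, yet SPF 4, low in most synthesis genes, came second (log2 fold change 0.14 ± 0.30 (SE), 95% interval -0.51 to 0.79, edgeR adjusted p = 0.985, and 0.09 without the 3 libraries). Insig2 stood at 92.4, 33.2, 68.6, 58.4 and 74.8 CPM in VSG 1 to 5 and at 54.4, 34.8, 68, 25.8 and 41.3 CPM in SPF 1 to 5. It had the lowest p of the members, with VSG 1, VSG 3 and VSG 5 above every SPF library, VSG 3 only just, and VSG 2 below 4 of the 5 (log2 fold change 0.54 ± 0.30 (SE), 95% interval -0.11 to 1.20, edgeR adjusted p = 0.977, and 0.43 without the 3 libraries).

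The ratio of the pair within a library does not depend on the scaling factor. Log2 Insig1 minus log2 Insig2 was 1.70, 2.51, 1.67, 0.91 and 0.84 in VSG 1 to 5 and 1.88, 1.52, 1.55, 3.12 and 1.75 in SPF 1 to 5. The means were 1.53 ± 0.68 in VSG and 1.96 ± 0.66 in SPF (SD, n = 5 each), a difference of -0.44 that did not exceed the spread (exact two-sided permutation p = 0.357, smallest possible p = 0.00794). VSG 4 and VSG 5 had the lowest ratios and SPF 4 the highest. Without SPF 4 the difference was -0.15. Without VSG 2, SPF 2 and SPF 4 it was -0.45 (exact two-sided permutation p = 0.229). With 4 against 3 libraries that test could give no p under 0.05.

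Of the 3 genes that move sterols between membranes 2 were higher in VSG, the median being 0.10 (2 of 3 and 0.09 without the 3 libraries). Stard4 carries cholesterol through the cytosol and is an SREBP2 target. It stood at 291.7, 182.4, 328.2, 373.4 and 321.9 CPM in VSG 1 to 5 and at 396.0, 308.5, 262.9, 157.7 and 269.4 CPM in SPF 1 to 5. Its order differed from that of the enzymes: SPF 1 and VSG 4 were highest and SPF 4 and VSG 2 lowest (log2 fold change 0.10 ± 0.25 (SE), 95% interval -0.45 to 0.66, edgeR adjusted p = 0.985, and 0.09 without the 3 libraries). Npc1 lets cholesterol out of lysosomes, and stood at 71.7, 46.3, 77.8, 66.4 and 57.3 CPM in VSG 1 to 5 and at 50.6, 68.3, 43.7, 27 and 52.1 CPM in SPF 1 to 5. All but VSG 2 of the VSG libraries lay above 4 of the 5 SPF libraries, SPF 2 being the exception (log2 fold change 0.40 ± 0.23 (SE), 95% interval -0.10 to 0.90, edgeR adjusted p = 0.977, and 0.49 without the 3 libraries).

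Without VSG 2, SPF 2 and SPF 4, Npc1 was the only member whose groups did not overlap, at 57.3 to 77.8 CPM in 4 VSG and 43.7 to 52.1 in 3 SPF libraries. Its log2 fold change there was 0.49 (95% interval 0.15 to 0.82), with an unadjusted p of 0.00975 and no call (edgeR adjusted p = 0.633). Among all 15911 genes tested in these libraries, 4.32% had the VSG values above and 3.79% below all SPF values, so 1 of 28 is near the background. Npc2, the soluble partner of Npc1 in the lysosome, was at 123.1 ± 12.3 CPM in VSG and 128.1 ± 38.6 in SPF (SD, n = 5 each), with a log2 fold change of -0.06 (-0.46 to 0.35), and -0.18 without the 3 libraries. SPF 3 stood at 195.4 CPM and the other SPF libraries at 96.9 to 119.1.

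Single libraries differed widely in these genes, within both groups. Over the 10 libraries the highest value of a member was, in the median, 3.19 times its lowest, against 1.9 times for the 9247 genes that averaged 10 CPM or more. Over the 7 libraries without VSG 2, SPF 2 and SPF 4 the medians were 2.09 and 1.72. VSG 1 held the highest value of 12 members, SPF 3 of 9 and VSG 3 of 6, whereas SPF 2 held the lowest of 19.

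**Figure D3:**
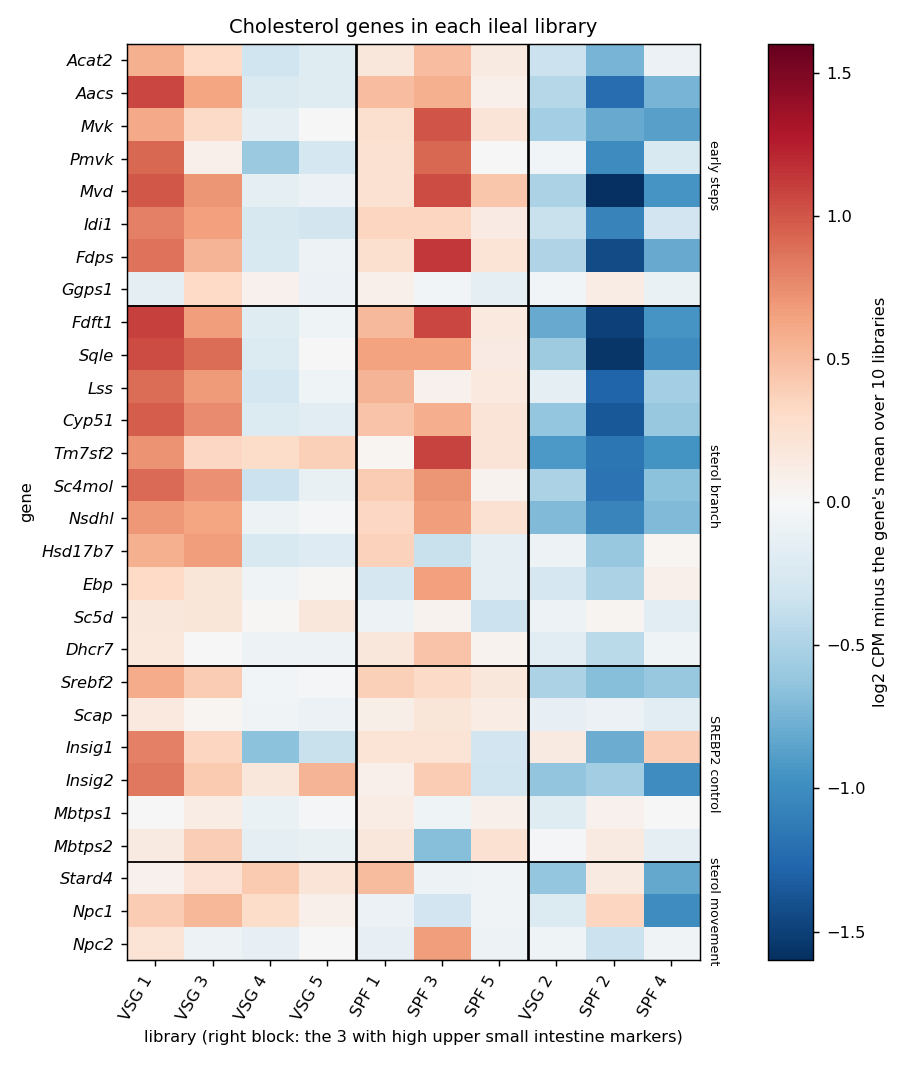
Log2 CPM of each gene (rows, grouped by role) in each library (columns), as the difference from the gene's mean over the 10 libraries, on a colour scale from blue (lower) to red (higher). The left block holds 4 VSG, the middle block 3 SPF libraries and the right block VSG 2, SPF 2 and SPF 4. Most enzyme rows are blue in the right block and red in VSG 1, VSG 3 and SPF 3, and the rows of Ggps1, Scap and Mbtps1 are pale throughout.

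In VSG 2, SPF 2 and SPF 4, 14 of the 28 members lay below all of the other 7 libraries and 0 lay above them, while 5.64% of all genes tested lay below and 6.08% above. The 14 were 5 early enzymes (Aacs, Mvk, Mvd, Idi1 and Fdps), 6 sterol branch enzymes (Fdft1, Sqle, Cyp51, Tm7sf2, Sc4mol and Nsdhl) and Srebf2, Scap and Insig2. Fdft1 stood at 54.4 to 87.2 CPM in the 3 libraries and 133.2 to 326.1 in the other 7, a ratio of the means of 3.02. Tm7sf2 stood at 12.6 to 14.9 CPM in the 3 libraries and 28.7 to 59.4 in the other 7. Both Fdft1 and Tm7sf2 share exonic bases with another gene, as described below. For Srebf2 the ranges were 147.4 to 167.5 and 230.2 to 357.2 CPM. Those of Scap met at 46.4 CPM when rounded, so its place in this count rests on a very small gap.

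Insig1 did not take part in this pattern, at 99.7 to 225.6 CPM in the 3 libraries and 109.7 to 300.3 in the other 7. Neither did Sc5d, Ggps1, Mbtps1 or Mbtps2, whose mean in the 7 libraries was 1.01 to 1.08 times that in the 3. These libraries were set apart by other genes than the members, but the labels give them no group, so the values are a description without a test. Enterocyte and proliferation markers overlapped between the 3 and the 7 libraries: the summed CPM of 4 enterocyte markers was 7920 to 11239 in the 3 libraries and 6334 to 12500 in the others, and that of 10 proliferation markers 410.2 to 518.2 and 301.1 to 572.7.

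Among the 7 libraries, the enzymes were highest in VSG 1, VSG 3, SPF 1 and SPF 3, a set picked after the values were seen. In 11 of the 19 enzymes, and in Srebf2 and Insig1, each of these 4 libraries lay above VSG 4, VSG 5 and SPF 5, an order held by 1.65% of the genes that averaged 10 CPM or more. The summed CPM of the 11 sterol branch enzymes was 2006, 1764, 1486 and 1727 in the 4 libraries and 1020, 1121 and 1194 in the other 3. The set holds 2 VSG and 2 SPF libraries and so crosses the surgical groups. Smooth muscle, B cell and proliferation markers overlapped between these 2 sets, with sums of 309.4 to 1598 against 758.8 to 3829, 16.3 to 240.0 against 74.4 to 183.9 and 430.0 to 572.7 against 301.1 to 542.4 CPM, and their part in the pattern was not tested.

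The genes around the pathway showed no call either. Of 9 tested genes that sense sterols or degrade pathway enzymes, 6 were higher in VSG with a median log2 fold change of 0.08 (7 of 10 and 0.16 without the 3 libraries). Rnf145, a ubiquitin ligase of the sterol pathway, had the lowest p among them, at 68.8 ± 18.2 CPM in VSG and 49 ± 22.7 in SPF (SD, n = 5 each, log2 fold change 0.49 ± 0.31 SE, edgeR adjusted p = 0.977), and its fold change was 0.19 without the 3 libraries. Among 8 partner factors of SREBP, such as the NF-Y subunits and Sp1, 6 were higher with a median of 0.08 (5 and 0.14). Of 12 genes that use isoprenoids for prenylation, dolichol or ubiquinone, 8 were higher with a median of 0.03 (6 and 0.01), and their summed CPM varied little, at 391.1 to 461.0 over all libraries.

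LXR, the sterol-activated receptor, drives genes that oppose cholesterol build-up. Of 9 genes in that list, 5 were higher and 4 lower in VSG around a median of 0.00, and 0 were called. Without the 3 libraries 8 were higher, the median was 0.21, and again 0 were called. Abca1, an exporter of cholesterol, ranged from 8.39 CPM in SPF 3 to 139.1 in VSG 2 (log2 fold change 0.54 ± 0.72 SE, edgeR adjusted p = 0.977, and 0.93 without the 3 libraries). Mylip, a ubiquitin ligase that LXR induces, stood at 23.4 ± 16 CPM in VSG and 17.2 ± 9.25 in SPF (SD, n = 5 each, log2 fold change 0.44 ± 0.55 SE, edgeR adjusted p = 0.977, and 0.21 without the 3 libraries). Srebf1, which encodes the relative of SREBP2 that governs fatty acid synthesis, reached 169.8 CPM in SPF 2 and 100.3 in VSG 2, and lay between 52.7 and 64.9 in the 7 libraries other than VSG 2, SPF 2 and SPF 4. In these 3 Srebf1 thus lay above, and Srebf2 below, all others. Srebf1 was 1 of the 9 genes of its list above all others, and 0 lay below. Of all genes tested 6.08% lay above and 5.64% below. The log2 fold change of Srebf1 was -0.39 ± 0.32 SE (edgeR adjusted p = 0.977), and 0.03 without the 3 libraries.

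Of 11 genes of esterification and sterol movement, 6 were higher and 5 lower, with a median of 0.00 (8 and 3, with 0.26, without the 3 libraries). Soat1, which esterifies cholesterol, stood at 11.3 ± 2.82 CPM in VSG and 16.1 ± 4.63 in SPF (SD, n = 5 each, log2 fold change -0.52 ± 0.23 SE, edgeR adjusted p = 0.977, and -0.55 without the 3 libraries). Scarb1, a receptor for lipoprotein cholesterol, stood at 6.99 ± 3.05 CPM in VSG and 14.6 ± 13.6 in SPF (SD, n = 5 each), with SPF 4 at 38.8. Its log2 fold change was -1.06 ± 0.50 SE (edgeR adjusted p = 0.977), and -0.58 without the 3 libraries. Npc1l1, the transporter that takes up cholesterol from the lumen, stood at 1247 ± 172.6 and 857.2 ± 369.3 (SD, n = 5 each, log2 fold change 0.54 ± 0.26 SE, edgeR adjusted p = 0.977, and 0.84 without the 3 libraries). Soat2, the esterifying enzyme of enterocytes, was 176.3 to 344.4 CPM in the 3 libraries and 78.5 to 171.7 in the other 7. Of the 11 genes 3 lay above all others in these 3 libraries and 0 below, against 6.08% and 5.64% of all genes tested.

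Of 14 fatty acid synthesis genes driven by SREBP1, 7 were higher and 7 lower in VSG, with a median of 0.01 (5 and 9, with -0.07, without the 3 libraries). Fads1, a desaturase, had the lowest p among them, at 18.5 ± 3.96 CPM in VSG and 27.1 ± 11.6 in SPF (SD, n = 5 each, log2 fold change -0.55 ± 0.27 SE, edgeR adjusted p = 0.977, and -0.48 without the 3 libraries). Scd2, a fatty acid desaturase, was 17.8 to 78.0 CPM in the 3 libraries and 206.1 to 416.7 in the other 7, the same direction as Sqle and Fdft1. Both Acaca, which makes malonyl-CoA, and Fads2, a desaturase, were also below all others there. With Scd2 they made 3 of the 14 genes below all others and 0 above, against 5.64% and 6.08% of all genes tested. The ranges of the rest overlapped, and some reached higher in the 3 libraries. Elovl6 was at 65 to 163.2 CPM there and 37.9 to 95.8 in the other 7, and Me1 at 32.9 to 94.9 and 6.81 to 61.8. The sum of the list was 549.9 to 731.4 CPM in the 3 libraries and 676.2 to 1139 in the 7, so the ranges met.

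**Figure D4:**
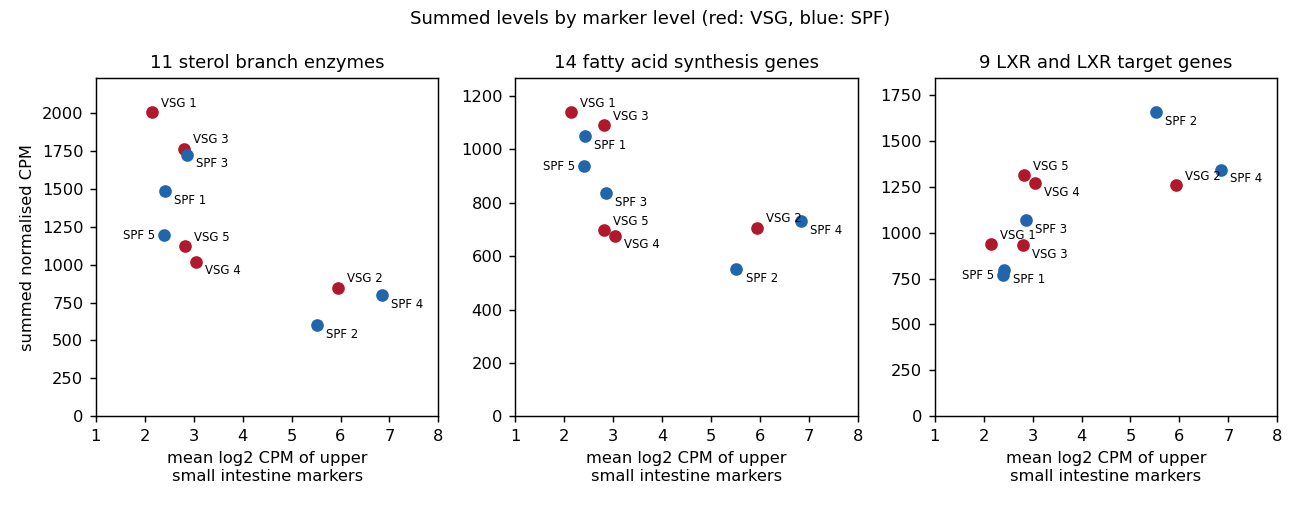
Summed normalised CPM (y axes, from 0) of 3 gene lists against the mean level of the proximal markers in log2 CPM (x axes), 1 point per library, VSG in red and SPF in blue. The 3 libraries at 5.52 to 6.84 on the x axis have the lowest sums of sterol branch enzymes (599.3 to 847.6), and for the other 2 lists the ranges of the 3 and the 7 libraries overlap.

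Some members share bases with other genes. In the GENCODE M21 annotation, 8 of the 28 overlap exons of another gene in the files, 6 of them on the opposite strand, among them Fdft1 with Ctsb, Cyp51 with Akap9, Ggps1 with Arid4b and Npc1 with Rmc1. Tm7sf2 overlaps Vps51, and Mbtps2 overlaps Yy2, on the same strand, where counting by strand would not separate the reads. For the others the sources used here do not give whether counting used strand, so such reads cannot be told apart. The neighbours differed in level. Ctsb averaged 15700 counts over the libraries, where Fdft1 had 1431 to 8348, and Vps51 averaged 902, where Tm7sf2 had 260 to 1508. Yy2 averaged 21.6 counts, where Mbtps2 had 221 to 638.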

How the data were processed

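Terminal ileum RNA was read as single-end 50-base sequences from Illumina TruSeq libraries, per the labels' protocols. For each of the 10 libraries the authors deposited estimated counts by Ensembl gene (15364651 to 34058181 in all, 61.18% of values whole), in files named for RPKM. They also deposited log2 values, which for the 11039 genes over 50 counts equal the log2 of the scaled count minus the median of the sham libraries. The submitters' processing notes name DESeq and the build mm9. No aligner or counter is given in the sources used here.

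Estimated counts were rounded and tested with edgeR 4.0.16 in R 4.3.3: filterByExpr, TMM, and the quasi-likelihood test on surgery alone, with p-values adjusted by Benjamini-Hochberg over all genes at 0.05. Log2 CPM used 2 as prior count. Each standard error was taken as the absolute fold change divided by the root of F. On simulated counts of 15502 genes, 29.6% of 2-fold and 84% of 4-fold changes were recovered, with 7 false calls among 120. The labels do not say that replicate numbers pair mice, so the test has no block. Nothing in the labels says that replicates were separate mice beyond their titles, and p-values measure only the spread between these libraries.

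The members and lists were chosen with earlier results of these data known. Every member is named. Values of all libraries are given for the 6 with the lowest p and for Sqle, Idi1, Insig1, Insig2, Srebf2, Scap, Stard4 and Npc1. Genes of the lists around the pathway were named in order of p from the lowest, at most 3 a list. Gata4, Cybrd1, Slc40a1, Soat2, Scd2, Acaca, Fads2, Elovl6, Me1 and the place of Srebf1 were named after their values were seen. So were the plasma cell markers and Ret. Marker lists whose sums were not given above were neuron and glia (16.9 to 56.3 CPM), stem cell (187.5 to 702.4), adipocyte (1.97 to 37.9), pancreas acinar (3.83 to 13) and red blood cell (36.3 to 173.0). Ret gave 48.2 of the 56.3 CPM of the neuron and glia sum in VSG 3. It was the 1 gene of that list higher in VSG (log2 fold change 0.92). Alternatives were other scaling, no filter, DESeq2 1.42.0, limma 3.58.1 (voom, and the deposited log2 values), a replicate block, a marker covariate and left-out libraries.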

Additional observations from a re-analysis of the deposited data

Results flagged for a closer look

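A library far from the other 4 of its group turned up in 2 of the 58 groups of 5 examined, where chance flags about 1 in 20. Npc2 stood at 195.4 CPM in SPF 3, and the next SPF library was at 119.1. The log2 ratio of Insig1 to Insig2 was 3.12 in SPF 4, and the next SPF library was at 1.88.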

How the results depend on the processing

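No member passed the threshold under any alternative run, and the lowest adjusted p was 0.375 (edgeR, Insig2 without SPF 3). DESeq2 called 14 genes over the whole table and 0 members, and the other alternatives called 0 genes, those with 1 library left out included. A member's value changed sign 27 times under the other settings and 38 times with 1 library left out, in 18 members in all, with signs taken before rounding. Without VSG 2, SPF 2 and SPF 4 the higher members were 13 and their median -0.02, and the log2 fold changes that turned were -0.14 for Acat2, -0.01 for Ebp, -0.16 for Fdft1, -0.25 for Fdps, -0.17 for Mvd, -0.08 for Nsdhl, -0.02 for Sc4mol, -0.03 for Srebf2 and -0.07 for Tm7sf2. With the proximal marker level as a covariate Acat2 was at -0.10, Fdft1 and Fdps were at -0.05 and Ebp, Nsdhl, Stard4 and Tm7sf2 at -0.02. With upper quartile factors Acat2 was at -0.06, Ebp at -0.02 and Ggps1 at -0.01. Mvk was at 0.05 with voom, 0.10 from the deposited log2 values and 0.08 with a replicate block. Pmvk was at 0.01 with DESeq2 and with its size factors, 0.03 with voom and with the block, and 0.05 from the deposited values. The cause of these changes was not tested.

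With 1 library left out at a time, the higher members ran from 14 (without SPF 2) to 26 (without SPF 3) and the median from 0.01 to 0.30. The log2 fold change ran from -0.16 to 0.14 for Acat2, -0.21 to 0.30 for Mvk, -0.30 to 0.30 for Pmvk, -0.06 to 0.55 for Mvd, -0.15 to 0.49 for Fdps and -0.03 to 0.10 for Ggps1. In the sterol branch it ran from -0.15 to 0.52 for Fdft1, -0.01 to 0.61 for Tm7sf2, -0.03 to 0.37 for Nsdhl, -0.07 to 0.26 for Ebp and -0.20 to 0.03 for Dhcr7. Among the rest it ran from -0.08 to 0.29 for Insig1, -0.09 to 0.00 for Scap, -0.05 to 0.16 for Mbtps2, -0.03 to 0.27 for Stard4 and -0.15 to 0.15 for Npc2, and the Insig1 to Insig2 difference from -0.68 to -0.15.

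Deviations of libraries with the same replicate number correlated at -0.319 to 0.182 over genes. They also carry the difference of VSG 2, SPF 2 and SPF 4 from the rest, so they cannot decide whether the numbers pair libraries. With a replicate block 24 members were higher, with a median of 0.20, and 0 genes were called. The Insig1 to Insig2 difference under the block was -0.44 (exact permutation p = 0.562), a test that with so few pairs could give no p under 0.05. Every member had at least 221 counts in each library, and edgeR's common coefficient of variation between libraries was 0.355.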
